A study of Mus musculus with 45 samples.

Results

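Kidney RNA of mice fed a high-cholesterol diet with extract 1 of Ganoderma lucidum (HCD+Gl-1) was compared with kidney RNA of mice fed the high-cholesterol diet alone (HCD). Ganoderma lucidum is a medicinal mushroom, and Gl-1 is a lyophilised hydroalcoholic extract of fruiting bodies grown on oak sawdust. The comparison takes 6 of the 45 Affymetrix mouse gene arrays of the study, the 3 HCD+Gl-1 and the 3 HCD kidney arrays, and all 22080 genes of the table. All animals were male C57BL/6 mice, 7 weeks old when bought, on the AIN-93 diet, and on day 43 they were sacrificed after food and water had been withheld. HCD added 0.5% cholesterol to that diet, and HCD+Gl-1 added 0.5% cholesterol and 1% of the extract. The other kidney groups, also of 3 arrays each, were Control (AIN-93 alone), HCD+Gl-2 (0.5% cholesterol and 1% of extract 2, from the same mushroom grown on a substrate with acetylsalicylic acid) and HCD+Sim (0.5% cholesterol and 0.03 g of simvastatin, a cholesterol-lowering drug, per 100 g). Each group held 8 mice. RNA of 4 of them made pool A and RNA of the remaining 4 made pool B, while pool C is the mixture of both. Each group thus has 3 arrays but only 2 separate pools. The p-values measure the spread between arrays within groups, the mixed pool C among them, and not the spread between mice.

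The labels of the kidney arrays name kidney in their titles and brain in part of their free text. On the 6 arrays the mean log2 level over 12 proximal tubule markers lay between 11.90 and 11.98, against 5.33 to 5.41 on the HCD brain arrays. Over 10 brain markers it lay between 5.81 and 5.99, against 11.11 to 11.18 on the HCD brain arrays. Array medians of the kidney arrays lay between 6.83 and 6.88 on the log2 scale, and the correlation of 2 arrays of a kidney group between 0.9955 and 0.9973. Pool C lay between pools A and B for 35.5% of genes in HCD and for 32.5% in HCD+Gl-1. Over genes, pool C differed from the mean of A and B with a standard deviation of 0.13 (log2) in HCD and 0.14 in HCD+Gl-1. Pool A differed from pool B with one of 0.16 in HCD and 0.15 in HCD+Gl-1.

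The kidney tubule reabsorbs phosphate, calcium and vitamin D from the filtrate, and it both activates vitamin D and breaks it down. Its proximal cells live largely on fatty acids, which are oxidised in mitochondria and peroxisomes under the control of the nuclear receptor PPAR alpha, and during fasting they switch fuel with the aid of the kinase Pdk4. The male kidney also reduces and oxidises steroids, and many of its transporters respond to sex hormones.

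Genes were counted as differentially expressed (DE) when the groups' means differed by more than 0.7 on the log2 scale, which is 1.62-fold, with an adjusted p of at most 0.05 in limma (Benjamini-Hochberg adjustment over all genes). HCD+Gl-1 against HCD gave 29 DE genes, 0.131% of those tested, 4 higher (0.0181%) and 25 lower (0.113%). Of these, 23 belonged to a class of dim multicopy genes, and every one of the 23 was lower. That class, described last among the gene groups, was set apart by gene symbol and level and not by change. Outside it, 6 of 19473 genes were DE (0.0308%). Of these 6, 4 were higher with the extract, among them Cyp24a1, Pdk4 and Akr1c18, and 2 were lower, Prlr and the antibody light chain segment Igk-V1. A further 21 genes outside the class had an adjusted p of at most 0.05 below the fold threshold, 10 higher and 11 lower. Of these 21, Gclc, Srd5a2 and Azgp1 kept such an adjusted p in all 6 fits that left out 1 array, and Acaa1b, Hrg and Rtp3 kept it in none. Over all genes, 59 had an adjusted p of at most 0.05 (0.267%), 14 of them higher (0.0634%) and 45 lower (0.204%), and 883 an unadjusted p under 0.05 (4%). For 8.14% of all genes every HCD+Gl-1 array was above every HCD array and for 5.62% every one was below, 13.8% together.

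**Figure D1:**
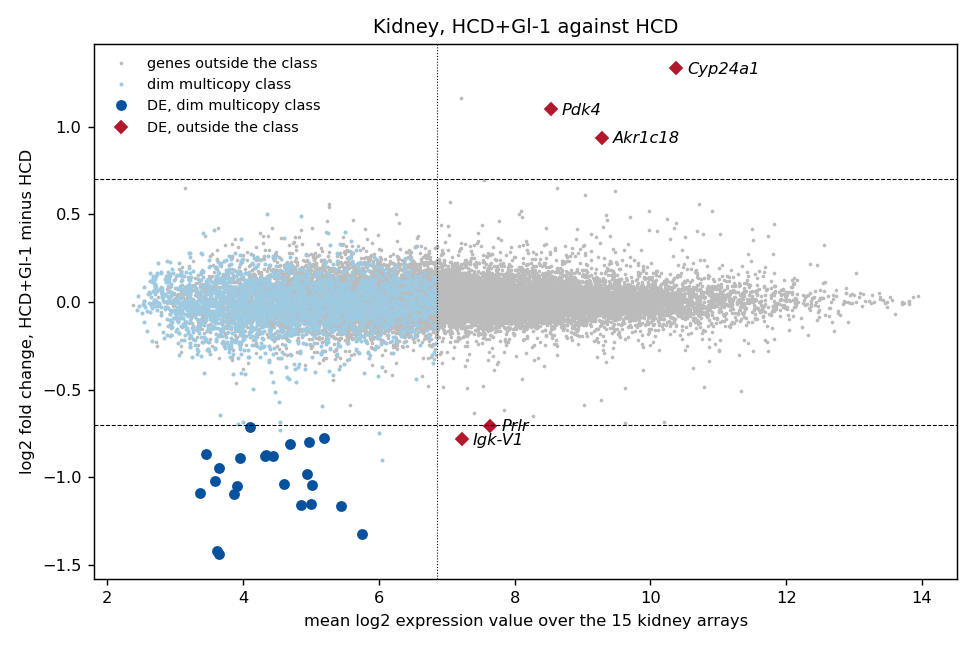
Log2 fold change of the reported genes between HCD+Gl-1 and HCD kidney (vertical axis) against their mean log2 expression value over the 15 kidney arrays (horizontal axis). Dashed lines mark 0.7 and -0.7, and the dotted line the median of the means, 6.86. The 23 DE genes of the dim multicopy class lie below -0.7 at mean levels of 3.37 to 5.75, and the 5 named DE genes outside it lie to the right of the dotted line.

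Promoter sequence from RefSeq (build GRCm38.p6) is shown for a pair of fatty acid fuel genes that rose, Pdk4 and Acaa1b, because both rose and are known targets of PPAR alpha. The 250 bases before the start site are given 5′ to 3′ on the gene's strand, with capitals at each AGGTCA or AGTTCA, the hexamers that nuclear receptors such as PPAR alpha bind, searched on both strands (TGACCT and TGAACT on the other strand). The Pdk4 window lies at chr6:5496279-5496528 and the Acaa1b window at chr9:119157094-119157343, both on the minus strand.
Pdk4: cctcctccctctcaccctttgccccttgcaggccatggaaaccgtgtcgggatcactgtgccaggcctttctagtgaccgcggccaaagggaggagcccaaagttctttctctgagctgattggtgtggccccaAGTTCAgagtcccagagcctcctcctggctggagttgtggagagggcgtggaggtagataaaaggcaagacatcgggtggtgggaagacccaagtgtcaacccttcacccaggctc
Acaa1b: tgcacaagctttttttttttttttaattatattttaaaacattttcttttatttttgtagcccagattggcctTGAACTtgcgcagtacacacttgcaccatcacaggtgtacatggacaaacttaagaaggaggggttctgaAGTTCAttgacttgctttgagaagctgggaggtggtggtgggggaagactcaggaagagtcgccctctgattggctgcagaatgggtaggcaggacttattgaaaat
Pdk4 held 1 match and Acaa1b held 2. Only single hexamers were searched for, not pairs at a set spacing, and binding of PPAR alpha to them was not tested. Of the 27 genes outside the class with an adjusted p of at most 0.05, 19 had an entry in the promoter table, and 6 of these held a match in at least 1 promoter, 3 of 8 that were higher and 3 of 11 that were lower. By promoter it was 6 of 25, against 24.2% of all 32851 promoters of the table. The windows of Akr1c18, Srd5a2, Slc22a26 and all 3 Prlr starts held none. Cyp24a1 and Angptl4 had no entry.

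Cyp24a1 encodes the 24-hydroxylase that inactivates vitamin D, and it was the gene with the smallest p in the comparison. Its log2 level was 9.57, 9.80 and 9.68 in HCD pools A, B and C, and 10.92, 11.05 and 11.09 in HCD+Gl-1. No array of either group reached the other. The log2 difference of 1.33 (standard error 0.10, adjusted p = 6.45e-11, limma) is 2.52-fold, and it lay between 1.28 and 1.39 when any 1 of the 6 arrays was left out. The Control arrays, at 10.55, 10.63 and 10.48, lay between both groups, as did those of HCD+Sim at 10.55, 10.63 and 10.46 and of HCD+Gl-2 at 10.22, 10.13 and 9.97. HCD+Gl-1 held the highest Cyp24a1 levels of the 15 kidney arrays and HCD the lowest.

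Of the 30 genes listed for vitamin D, phosphate and calcium handling, Cyp24a1 was the only member with an adjusted p of at most 0.05. The list's median log2 fold change was 0.05, against 0.01 for all genes. Cyp27b1, which makes active vitamin D, stood at -0.04 (standard error 0.14), and the vitamin D receptor gene Vdr at 0.17 (standard error 0.10). The calcium-binding Calb1 stood at 0.19 with arrays that did not overlap, and it did not pass the test. By Pearson's correlation over the 15 kidney arrays, which share 5 groups and the mixed pools, the genes with levels most like those of Cyp24a1 were Gpam (0.89), Slc25a30 (0.86), Idua (0.85), Gm10754 (0.83) and Hirip3 (0.82). None of these 5 passed the test in HCD+Gl-1 against HCD.

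**Figure D2:**
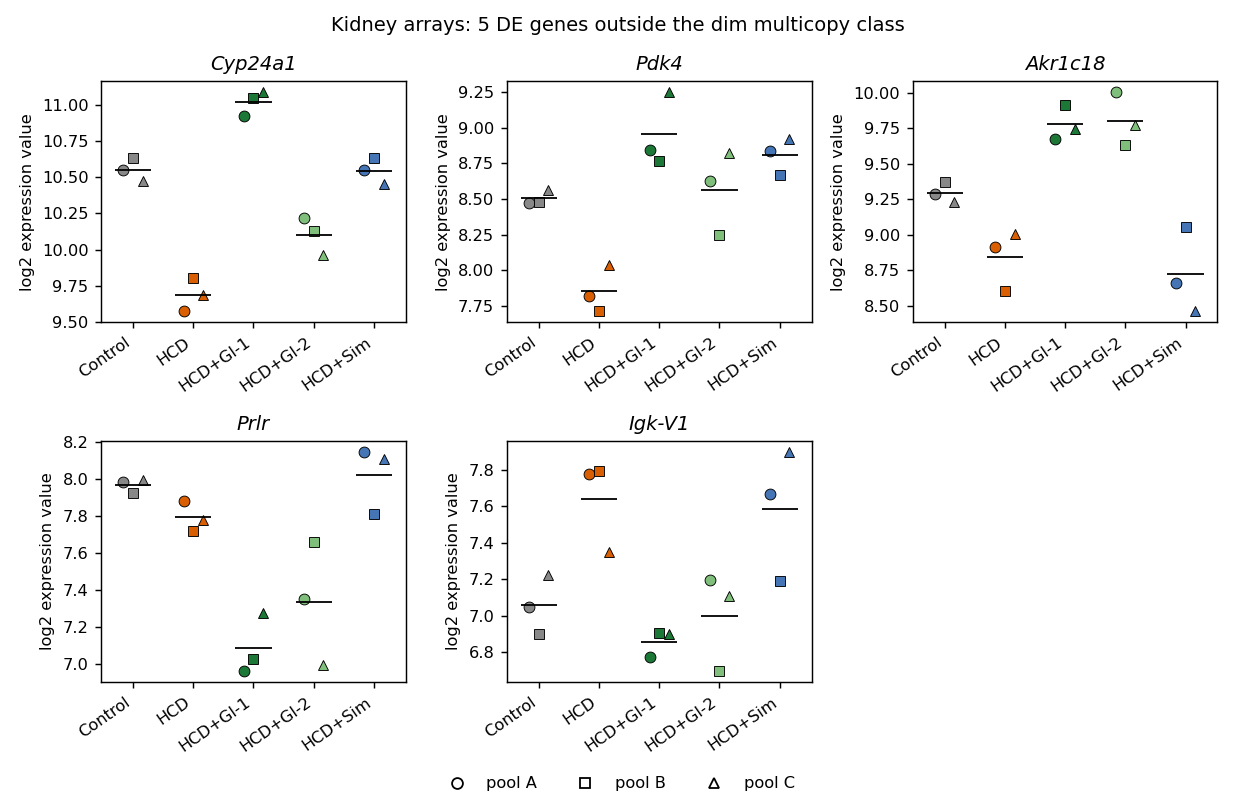
Log2 expression value (vertical axes, each with its own range) of 5 DE genes outside the dim multicopy class on each of the 15 kidney arrays, by diet group. Symbols mark pools A, B and C and bars the mean of 3 arrays. HCD and HCD+Gl-1 do not overlap for any of the 5, and Cyp24a1 is highest and Prlr and Igk-V1 have their lowest group mean in HCD+Gl-1.

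The thiolase genes Acaa1b of peroxisomes and Acaa2 of mitochondria, whose products end each cycle of fatty acid oxidation, rose with the extract in the fit of all arrays. Acaa1b was at 9.11, 8.97 and 8.95 in HCD and at 9.42, 9.47 and 9.62 in HCD+Gl-1, a log2 rise of 0.49 (standard error 0.11, adjusted p = 0.0397). Acaa2, at 9.45, 9.35 and 9.31 in HCD and at 9.61, 9.65 and 9.74 in HCD+Gl-1, rose by 0.30 (standard error 0.07, adjusted p = 0.0405), and its arrays did not overlap either. With 1 array left out the adjusted p of Acaa1b was above 0.05 each time, at most 0.311, and that of Acaa2 each time but without HCD array A, at most 0.338. These were the 2 that passed the adjusted p among the 31 fatty acid oxidation and ketogenesis genes described here.

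Of the 31 genes, 27 had a higher mean with the extract and 4 a lower one. An unadjusted p under 0.05 was held by 12, all of them higher, against 4% of all genes in either direction. In 21 of the 31 every HCD+Gl-1 array was above every HCD array, against the 8.14% of all genes, and in no member was the order the other way round. At the median these genes were higher by 0.15 (log2), against 0.01 for all genes. Slc25a20, the carnitine carrier of the inner mitochondrial membrane, stood at 0.38 (adjusted p = 0.106) and Ehhadh, a peroxisomal enzyme, at 0.36, neither past the test. The list's median was -0.07 in HCD against Control and 0.07 in HCD+Gl-1 against Control, comparisons that share arrays with this one. It was 0.13 in HCD+Gl-2 against HCD and 0.08 in HCD+Sim against HCD, which share the HCD arrays.

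**Figure D3:**
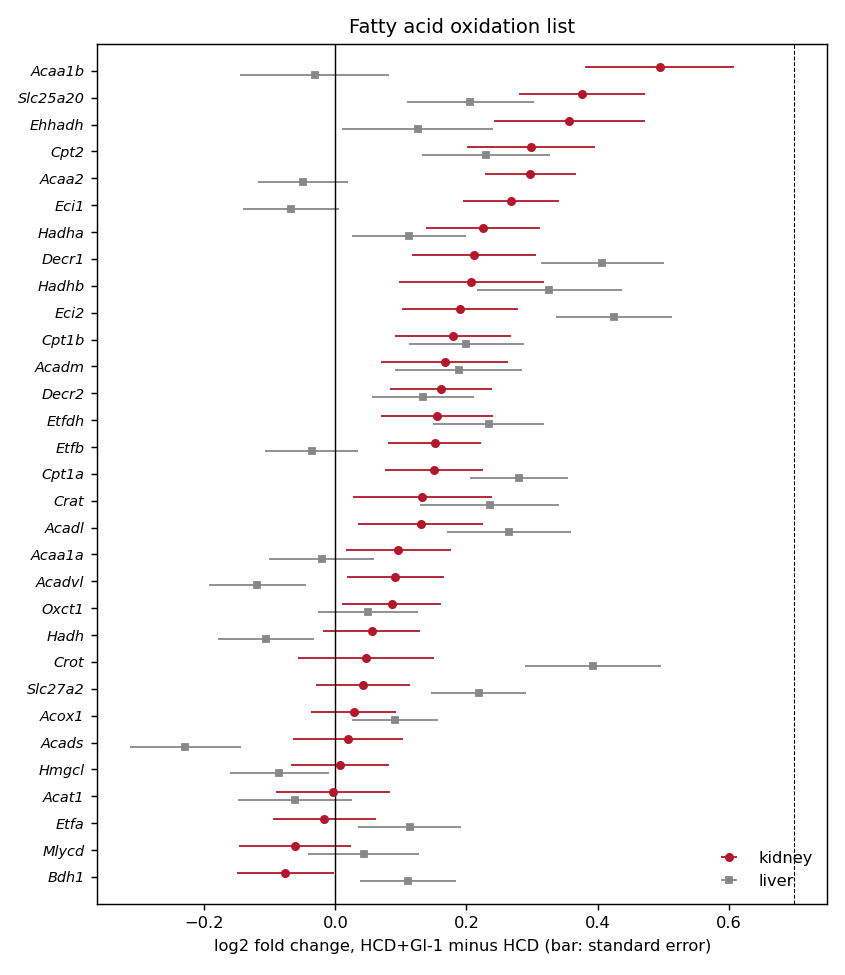
Log2 fold change between HCD+Gl-1 and HCD (horizontal axis) of 31 fatty acid oxidation and ketogenesis genes in kidney (circles) and liver (squares), with standard errors as bars. The dashed line marks the fold threshold of 0.7. In kidney Acaa1b stands highest of those shown, at 0.49, and 27 of the 31 lie above 0.

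Pdk4, the kinase that shuts off pyruvate dehydrogenase and so spares glucose, was at 7.82, 7.71 and 8.04 in HCD and at 8.84, 8.76 and 9.25 in HCD+Gl-1. The arrays did not overlap, and the log2 difference of 1.098 (standard error 0.17, adjusted p = 0.00015) is 2.14-fold. Control was at 8.47, 8.48 and 8.56, below the lowest HCD+Gl-1 array. Against the same HCD arrays Pdk4 was also higher in HCD+Gl-2, by 0.71 (log2), and in HCD+Sim, by 0.95. The other kinases of the complex, Pdk1, Pdk2 and Pdk3, had log2 fold changes of 0.05, -0.02 and 0.08, and Pdk4 alone passed among the 22 listed genes of pyruvate metabolism. In that list Pck1, the enzyme that commits carbon to glucose synthesis, had one of 0.32 (adjusted p = 0.56) with arrays that did not overlap.

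Angptl4, a secreted inhibitor of lipoprotein lipase that PPAR alpha induces, was at 8.59, 8.57 and 8.73 in HCD and at 9.19, 9.01 and 9.53 in HCD+Gl-1. Its rise by 0.61 (log2, standard error 0.13, adjusted p = 0.0228) stayed under the fold threshold. The log2 fold change ran from 0.47 to 0.73 with 1 array left out, and Angptl4 was DE without HCD+Gl-1 array B. The adjusted p was above 0.05 without HCD+Gl-1 array A or C or HCD array A or B, at most 0.378, and it was 0.171 in a fit on the kidney arrays alone. Of the 36 listed PPAR alpha response genes outside beta-oxidation, 26 had a higher mean with the extract and 10 a lower one, and only Pdk4 and Angptl4 passed the adjusted p. The arrays did not overlap for 15 that were higher and 4 that were lower, against 8.14% and 5.62% of all genes. Against 0.01 for all genes, the list's median log2 fold change was 0.11. That median was 0.13 in HCD+Gl-2 against HCD and 0.07 in HCD+Sim against HCD, which share the HCD arrays.

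Members of the list that did not pass the test included the acyl-CoA thioesterases Acot2 (0.56) and Acot1 (0.52), the pantetheinase Vnn1 (0.52) and the uncoupling protein Ucp2 (0.45). The omega-hydroxylase genes Cyp4a10, Cyp4a14, Cyp4a31 and Cyp4a32 had log2 fold changes of 0.41, 0.39, 0.45 and 0.38, and the family's male-biased members Cyp4a12a and Cyp4a12b had -0.51 and -0.27. None of these Cyp4a genes passed, and members of this family are so alike that probe sets may read more than 1 of them. Ppara itself had a log2 fold change of 0.04.

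A pair of steroid enzymes moved in opposite directions. Akr1c18, the 20-alpha-hydroxysteroid dehydrogenase that inactivates progesterone, was at 8.92, 8.60 and 9.01 in HCD and at 9.67, 9.91 and 9.74 in HCD+Gl-1. The log2 difference of 0.94 (standard error 0.17, adjusted p = 0.00206) is 1.91-fold, and the arrays did not overlap. Without HCD array B the adjusted p was 0.0606. HCD+Gl-2 stood as high, at 10.00, 9.63 and 9.77, whereas HCD+Sim, at 8.66, 9.05 and 8.46, overlapped HCD. Control lay between at 9.28, 9.37 and 9.23.

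Srd5a2, the 5-alpha-reductase that turns testosterone into dihydrotestosterone, was at 10.03, 10.09 and 10.10 in HCD and at 9.25, 9.33 and 9.56 in HCD+Gl-1. All HCD+Gl-1 arrays were below all HCD arrays, and the log2 difference was -0.69 (standard error 0.11, adjusted p = 0.000173). It fell just short of the fold threshold and passed it without HCD+Gl-1 array C or without HCD array A. Control, at 9.27, 9.12 and 9.52, overlapped HCD+Gl-1, and HCD+Sim stayed with HCD at 10.14, 10.23 and 10.09. The related Srd5a1 stood at -0.30 (adjusted p = 0.0893) with arrays that did not overlap.

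Akr1c18 and Srd5a2 were the only 2 of 35 measured steroid reductases and dehydrogenases that passed the adjusted p, and the list's median log2 fold change was 0.00. Hsd11b1, which regenerates active glucocorticoid, had one of -0.49 (adjusted p = 0.268). The close relatives of Akr1c18 on the array, such as Akr1c14 at 0.06 and Akr1c21 at -0.03, did not pass. Of 19 androgen-responsive and sex-biased kidney genes none passed, with 7 higher and 12 lower, a median of -0.03 and an unadjusted p under 0.05 for 3 that were higher and 4 that were lower. Over all genes 4% had such an unadjusted p. The arrays did not overlap for 4 that were higher and 6 that were lower, against 8.14% and 5.62% of all genes. The list's largest changes were those of Slc22a19 (0.47, adjusted p = 0.0602), Cyp7b1 (0.42), Slc22a7 (0.41) and Slco1a1 (-0.28). The androgen-regulated kidney protein gene Kap was at -0.01.

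Prlr, the prolactin receptor gene, was at 7.88, 7.72 and 7.78 in HCD and at 6.97, 7.03 and 7.28 in HCD+Gl-1. Every HCD+Gl-1 array was below every HCD array, with a log2 difference of -0.71 (standard error 0.16, adjusted p = 0.028) that is just past the fold threshold. Prlr was not DE when HCD+Gl-1 array A or B or any HCD array was left out, with log2 fold changes of -0.64 to -0.80 over the 6 fits that leave out an array. The Control arrays at 7.98, 7.93 and 8.00 and the HCD+Sim arrays at 8.15, 7.81 and 8.11 were all above HCD+Gl-1, and HCD+Gl-2 spread from 7.00 to 7.66. Of the 22 listed prolactin and growth hormone signalling genes Prlr alone passed. Socs2, a feedback inhibitor of this pathway, had a log2 fold change of 0.31, and Ghr, Jak2 and Stat5b had 0.04, 0.05 and 0.05.

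Nearest inside the fold threshold were Prlr, the dim genes Vmn1r104 (-0.71) and Srsy (-0.77), and nearest outside were the transporter gene Slc22a26 (0.70), the dim gene Vmn1r117 (-0.69) and Srd5a2. Slc22a26, of the organic anion transporter family, was at 7.23, 7.34 and 6.87 in HCD and at 7.96, 7.99 and 7.59 in HCD+Gl-1 (log2 fold change 0.698, adjusted p = 0.00494). The adjusted p stayed at most 0.05 in 3 of the 6 fits with 1 array left out. Slc22a26 stood at 8.03, 7.96 and 7.71 in HCD+Gl-2. In HCD+Sim it was at 7.24, 7.24 and 7.60.

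Further genes were higher below the fold threshold. Slc25a25, a mitochondrial carrier of ATP-Mg and phosphate, was at 7.91, 7.92 and 8.02 in HCD and at 8.56, 8.59 and 8.66 in HCD+Gl-1 (log2 fold change 0.65, adjusted p = 0.0114). Its adjusted p stayed at most 0.05 in 2 of the 6 fits with 1 array left out. Gclc, the catalytic subunit of the enzyme that starts glutathione synthesis, was at 10.79, 10.88 and 10.58 in HCD and at 11.26, 11.32 and 11.23 in HCD+Gl-1, a log2 fold change of 0.52 with the small standard error of 0.08. All the other 12 kidney arrays had Gclc between 10.58 and 10.93, so HCD+Gl-1 stood above every one. The kinetochore gene Spc25 (0.57), Macc1 (0.54) and the sugar cotransporter gene Slc5a10 (0.41) also passed, each in 2 or 3 of the 6 fits with 1 array left out. Cryab, a small heat shock protein named because it was the 1 gene of the 21 whose arrays overlapped, had a log2 fold change of 0.63. It passed in 2 of those 6 fits.

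Gclc was the only 1 of 22 measured NRF2 antioxidant genes to pass. Its partner subunit Gclm had a log2 fold change of 0.04 and Nqo1 one of -0.02, and the list's median was 0.01.

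Among the genes that fell below the fold threshold, Azgp1, which encodes a lipid-mobilising secreted glycoprotein, was at 10.64, 10.56 and 10.48 in HCD and at 9.87, 9.71 and 10.05 in HCD+Gl-1 (log2 fold change -0.68, adjusted p = 0.000407). HCD+Sim was at 10.66, 10.53 and 10.46, as high as HCD, and HCD+Gl-2 at 9.85, 9.91 and 9.86, as low as HCD+Gl-1. The plasma protein gene Hrg (-0.65), the alpha-2-macroglobulin relative Pzp (-0.49) and the chemokine gene Ccl28 (-0.58) fell too. Of the 6 fits with 1 array left out, Pzp kept an adjusted p of at most 0.05 in 3, Ccl28 in 2 and Hrg in 0. For these 3, the means of HCD+Gl-1 were 8.02, 10.57 and 8.81 and those of Control 8.05, 10.62 and 8.81.

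Car9, a carbonic anhydrase gene, was at 8.04, 8.18 and 8.01 in HCD and at 7.53, 7.27 and 7.59 in HCD+Gl-1 (-0.62, adjusted p = 0.0334). Foxi1, the transcription factor that specifies the acid-secreting intercalated cells of the collecting duct, was at 8.19, 8.30 and 8.32 in HCD and at 7.86, 7.61 and 8.03 in HCD+Gl-1 (-0.44, adjusted p = 0.0227). In whole kidney, fewer cells of a type and less RNA per cell cannot be told apart. Of the 11 collecting duct markers, Foxi1 alone passed, and the intercalated cell genes Atp6v1g3, Slc26a4, Slc4a1 and Atp6v0d2 had log2 fold changes of -0.18, -0.06, 0.03 and 0.09. Hapln1 (-0.59), Boll (-0.46) and Rtp3 (-0.37), the last named to complete the 11, also fell. With 1 array left out the adjusted p reached 0.44 for Car9 and 0.497 for Foxi1, which kept one of at most 0.05 in 1 and 2 of the 6 fits. Hapln1 and Boll each kept one in 1 fit.

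Igk-V1 was at 7.78, 7.79 and 7.35 in HCD and at 6.77, 6.90 and 6.90 in HCD+Gl-1, a log2 difference of -0.78 (standard error 0.15, adjusted p = 0.00294). It was not DE without HCD array A or without HCD array B, nor in the fit on kidney arrays alone (adjusted p = 0.073). A further kappa light chain variable segment among the 27 genes (probe set 10545184) also fell, by 0.49 on the log2 scale (adjusted p = 0.0379). Of the 39 antigen receptor segments counted in the dim class 26 had a lower mean and 13 a higher one, and none was DE. Of the 8 segments that were not dim 7 had a lower mean, with a median log2 fold change of -0.24, and those 2 passed the adjusted p. The mean log2 level over 11 measured immune cell markers was 7.02 to 7.04 in HCD and 6.94 to 6.99 in HCD+Gl-1, 8 of the 11 lower, none past the test. Of these Igj was at -0.28, Ighm at -0.22 and the B cell genes Cd79a and Cd79b at -0.07 and 0.02, while the macrophage gene Lyz2 was at 0.34 with arrays that did not overlap. In level, 7 of the 11 markers lie above the array median. The part of immune cells in the Igk-V1 result was not tested.

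Few or none of the other listed genes passed. Of 24 cholesterol synthesis genes 18 had a lower mean with the extract and 6 a higher one, with a median of -0.07 (log2). None passed the test, and the unadjusted p was under 0.05 for 2, both on the lower side. Over all genes 4% had such an unadjusted p, the share to set beside this list and those below. Sqle and Msmo1 of the later steps were at -0.33 and -0.32. Of 24 fatty acid synthesis genes none passed (median -0.02, 4 with an unadjusted p under 0.05), with Scd1, the stearoyl-CoA desaturase, at -0.37 (adjusted p = 0.0661). No gene passed in the lists for sterol export and LXR, the clock, immediate early genes, heat shock, interferon-stimulated genes, kidney injury and fibrosis, and organic ion and drug transporters, whose medians lay between -0.04 and 0.05 and of which 0 to 5 members each had an unadjusted p under 0.05. Slc22a26, described above, is not on the transporter list. In the glucocorticoid and fasting list only Angptl4 passed.

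The cell type markers shifted by little. Median log2 fold changes were 0.04 for 12 proximal tubule markers, -0.01 for 8 podocyte markers, 0.10 for 9 loop of Henle and distal tubule markers, 0.03 for 11 collecting duct markers and -0.04 for 8 endothelial markers. In the distal list the arrays did not overlap for 4 of the 9, all higher, against 8.14% of all genes. Kcnj1 stood at 0.30 and Umod at 0.22, neither past the test. The medians for adipose tissue, adrenal cortex, liver and brain lay between 0.01 and 0.05. Foxi1 was the only member of any of the 10 marker lists that passed the adjusted p.

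The dim multicopy class held 2607 genes with a kidney mean under 6.86, the median of all genes. It took in predicted genes, olfactory and vomeronasal receptors, small nucleolar RNAs, microRNAs, antigen receptor segments and genes of the Y chromosome or of its germ line families. Many of these are near-identical copies, so that a probe set can read several of them. Of the class 23 genes were DE, all lower with the extract, while its median log2 fold change was -0.01. By kind, 11 of the 19 dim Y genes were DE, 8 of 972 predicted genes, 3 of 208 vomeronasal receptors and 1 of 22 small nucleolar RNAs, but none of 1087 olfactory receptors or 249 microRNAs. Of the 23, 11 are on the Y chromosome, 4 on chromosome 7 and 1 on the X in RefSeq, and 7 had no place there.

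Promoters show how alike some of these genes are, though the sequence that the probes read was not compared. Of the 23, 12 had a single promoter in the RefSeq table, and 3 of these genes, Gm20747, Gm20815 and Gm21943 on the Y chromosome, matched each other at 94.3% to 98.9% of the bases aligned without gaps. Of the 66 pairs among the 12, only these 3 pairs had 90% or more of the bases identical. A stretch of 100 bases just before the start site of Gm20815 (chrY:8835170-8835269, minus strand) is shown beside the matching stretch of Gm21943 (chrY:57533745-57533844, minus strand), with the 1 base that differs in capitals.
Gm20815: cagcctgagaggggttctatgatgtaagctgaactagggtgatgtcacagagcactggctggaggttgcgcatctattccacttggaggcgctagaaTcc
Gm21943: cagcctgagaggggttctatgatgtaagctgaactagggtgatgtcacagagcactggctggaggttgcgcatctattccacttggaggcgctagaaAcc

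Gm20815 was at 5.72, 5.74 and 5.82 in HCD and at 4.59, 4.62 and 4.62 in HCD+Gl-1, lower by a log2 difference of -1.15 (standard error 0.10, adjusted p = 1.27e-09). Gm21943 was at 6.18, 6.05 and 6.33 in HCD and at 4.90, 5.04 and 5.12 in HCD+Gl-1, a log2 fold change of -1.17. Snord115, a small nucleolar RNA of many copies that is known from brain, had a log2 fold change of -1.44, with 4.56, 4.81 and 4.49 in HCD and 3.00, 3.30 and 3.24 in HCD+Gl-1. Gm28683 (-1.32), Gm26230 (-1.42), Gm20877 (-1.16), Gm30858 (-1.09) and LOC102637691 (-1.09) followed.

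The HCD arrays were the highest in these genes, and the HCD+Gl-1 arrays lay below Control. For 22 of the 23 all 3 HCD arrays were above all 12 other kidney arrays. The median level of the 23 genes was 4.96, 5.16 and 4.96 on HCD arrays A, B and C, 3.99, 4.11 and 4.13 on those of HCD+Gl-1, 4.41 to 4.60 on Control arrays, 3.97 to 4.20 on HCD+Gl-2 arrays and 4.05 to 4.29 on HCD+Sim arrays, against array medians of 6.83 to 6.88 over all genes. The log2 fold changes of the 23 in HCD against Control were 0.31 to 1.01, and in HCD+Gl-1 against Control -0.66 to -0.13, with medians of 0.51 and -0.52. An adjusted p of at most 0.05 against Control was held by 16 of the 23 in HCD, all higher, and by 9 in HCD+Gl-1, all lower. Over all genes the shares were 0.131% in HCD and 0.0634% in HCD+Gl-1. Both comparisons use HCD or HCD+Gl-1 arrays with which the 23 had been chosen. Of the 2607 genes of the class, 22 were DE in HCD+Gl-2 against HCD and 24 in HCD+Sim against HCD. Of the 11040 genes that were not dim, 43 and 5 were DE, and of the 8433 dim genes outside the class 9 and 2. Both comparisons share the HCD arrays with HCD+Gl-1 against HCD. In HCD against Control, 3 genes of the class were DE. In HCD+Gl-1 against Control and in HCD+Gl-1 against HCD+Gl-2, which use no HCD array, no gene of the class was DE. The methods name a batch adjustment but not its batches, and their part in this result was not tested.

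**Figure D4:**
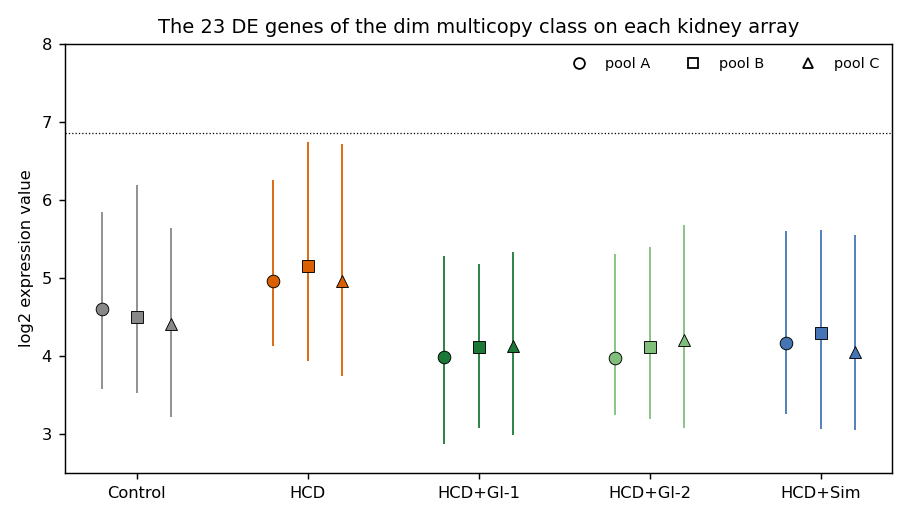
Log2 expression value (vertical axis, starting at 2.5) of the 23 DE genes of the dim multicopy class on each kidney array, by diet group. Symbols give the median of the 23 genes and vertical lines their lowest and highest value, and the dotted line is the mean of the array medians over all genes. The 3 HCD arrays have the highest medians of the 15.

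The comparison with Control uses no HCD array but the same HCD+Gl-1 arrays, and it gave fewer DE genes. There were 2 DE genes (0.00906%), both lower with the extract. Prlr differed by -0.88 (log2, standard error 0.16, adjusted p = 0.00541) and Polr3e, an RNA polymerase III subunit gene named after its values were seen, one of -0.78 (adjusted p = 0.0168). Neither was DE when HCD+Gl-1 array A or B, or Control array A or B, was left out, and a fit on the kidney arrays alone left 1 of them. Of the 27 genes outside the class with an adjusted p of at most 0.05 against HCD, 3 also had one against Control, where 0.0634% of all genes had one. Besides Prlr these were Gclc, higher by 0.43 (adjusted p = 0.00541), and Foxi1, at -0.57 (adjusted p = 0.00526). The 27 had been chosen with the same HCD+Gl-1 arrays.

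For the 3 named DE genes that rose against HCD, the difference from Control did not pass. Cyp24a1 had a log2 difference of 0.47 (standard error 0.10, adjusted p = 0.0874), and Pdk4 and Akr1c18 had 0.45 and 0.48 (both with standard error 0.17). Of the 27 genes, 7 had an adjusted p of at most 0.05 in HCD against Control (0.131% of all genes), among them Cyp24a1 (-0.87), Angptl4 (-0.76) and Srd5a2 (0.77), a comparison that shares the HCD arrays.

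Liver of the same groups was used to ask whether the extract moved the same genes in both organs. In liver HCD+Gl-1 against HCD gave 35 DE genes outside the class (0.18%), and none of them was DE in kidney, where 0.0308% of such genes were. With a share so small, the lack of overlap does not show that the organs differ. None of the 27 kidney genes had an adjusted p of at most 0.05 in liver, where 2.48% of all genes had one. The difference between the responses was tested in the same fit and passed at the thresholds for 23 genes outside the class (0.118%), 15 with the higher response in kidney and 8 with the lower. In 6 of these the kidney change itself had an adjusted p of at most 0.05, against 0.267% of all genes. That change is part of the difference tested, so genes with a large kidney change are more likely to pass.

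Among these 6 were Cyp24a1, Pdk4 and Gclc on the higher side and Srd5a2 and Azgp1 on the lower. Cyp24a1 was at 6.62, 6.69 and 6.42 in HCD liver and at 6.53, 6.52 and 6.78 in HCD+Gl-1 liver, a log2 fold change of 0.03, and the organs differed by 1.301 (standard error 0.15, adjusted p = 8.72e-07). Pdk4 changed by 0.06 in liver (standard error 0.17), and its organs differed by 1.04 (adjusted p = 0.039). Gclc had a log2 fold change of -0.21 in liver and 0.52 in kidney, a difference of 0.73 (adjusted p = 0.000119).

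Srd5a2 had a log2 fold change of 0.04 in liver, and the organs differed by -0.73 (adjusted p = 0.0146). Azgp1, at 0.07 in liver, differed by -0.76 (adjusted p = 0.0148). For Prlr, with -0.43 in liver, and for Akr1c18, with 0.12, the difference between organs did not pass (adjusted p = 0.722 and 0.164). Of the 31 fatty acid oxidation and ketogenesis genes 21 were higher in liver, with a median of 0.11, and for none did the response differ between organs at an adjusted p of at most 0.05 (0.389% of all genes). Of the dim multicopy genes, Gm20815 stood at 0.07 and Gm28683 at 0.17 in liver, neither past the test there. The kidney median of the 24 cholesterol synthesis genes was -0.07 beside -0.19 in liver, where 6 of them were lower at an adjusted p of at most 0.05 (0.996% of all genes).

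**Figure D5:**
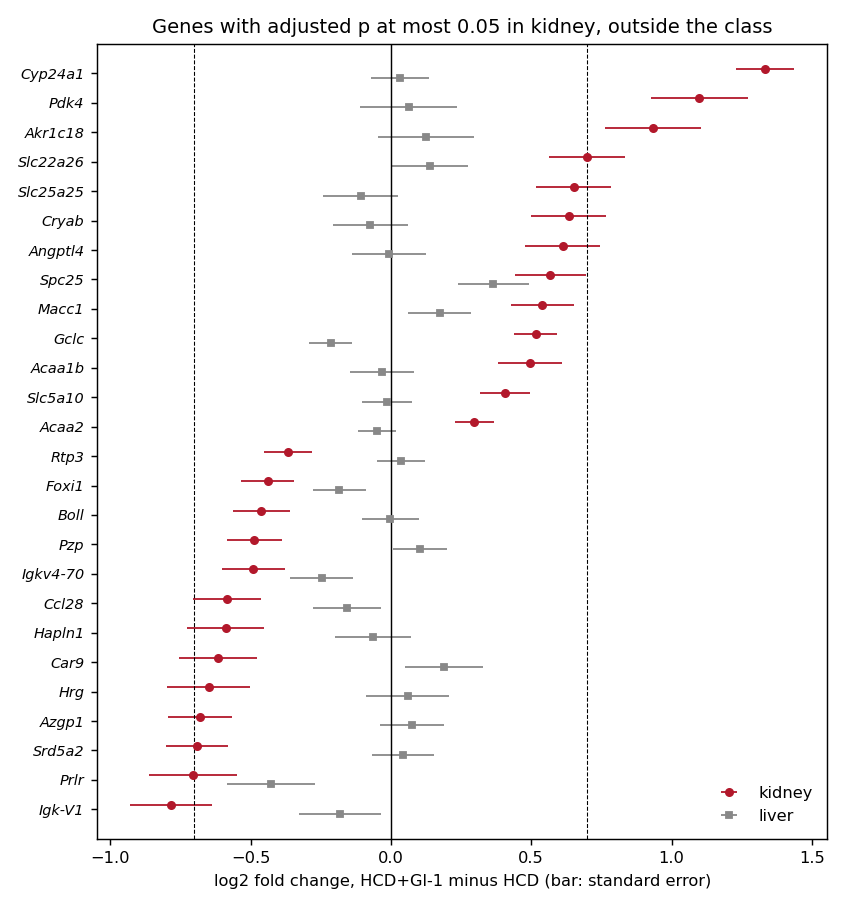
Log2 fold change between HCD+Gl-1 and HCD (horizontal axis) in kidney (circles) and liver (squares) for 26 of the 27 genes outside the dim multicopy class with an adjusted p of at most 0.05 in kidney, with standard errors as bars. Dashed lines mark 0.7 and -0.7. The liver values of Cyp24a1 and Pdk4 lie at 0.03 and 0.06, while the kidney values lie at 1.33 and 1.098.

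Extract 2 was set against extract 1 directly, at the same dose of 1% of the diet. HCD+Gl-1 against HCD+Gl-2 gave 40 DE genes, 0.181% of all genes and none in the dim class, 39 lower with extract 1 (0.177%). Cyp24a1 was the only one higher with extract 1, by 0.92 (standard error 0.10, adjusted p = 1.69e-07), with no overlap of the arrays. Of the 30 listed immediate early genes, which answer within minutes to signals, 18 were DE and lower with extract 1, among them Egr1 at -3.86 and Fos at -2.57. Against HCD the same 2 genes had log2 fold changes of 0.11 and 0.12 with extract 1.

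Slc25a25 rose with extract 1 and was higher still with extract 2, at 9.72, 9.25 and 9.92, a difference of -1.03 (adjusted p = 3.06e-06). Gclc was higher with extract 1 by 0.44 (adjusted p = 0.000778). These 3 were the only ones of the 27 kidney genes that differed between the extracts at an adjusted p of at most 0.05 (0.394% of all genes). This comparison too uses the HCD+Gl-1 arrays with which the 27 were chosen. For Pdk4, Akr1c18 and Prlr the log2 differences were 0.39, -0.03 and -0.25, with standard errors of 0.17, 0.17 and 0.16, and none passed the test.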

How the data were processed

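RNA from kidney, liver and brain was hybridised to 45 Affymetrix mouse gene arrays. Per the methods, the authors corrected background with RMA, quantile normalised, applied ComBat for batches that the sources used here do not name, and kept 1 probe set per gene. The deposited values are on the log2 scale, so a difference of values is a log2 fold change, and the number of arrays limits their precision. The genome build is not given in the sources used here. Groups and pool letters were taken from the labels. Differences were taken from 1 limma (3.58.1, R 4.3.3) fit to the 45 arrays, with a mean for each of 15 groups (30 residual and 7.34 prior degrees of freedom), with Benjamini-Hochberg adjustment over 22080 genes in each contrast. An exact two-sided permutation test of 3 arrays against 3 cannot go below 0.1. The script was tested on simulated data.

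The dim multicopy class was set by symbol or Y chromosome and by a mean over the kidney arrays under the median. Genes were named if DE outside the class, then up to 10 in each direction with an adjusted p of at most 0.05 and arrays that did not overlap, up to 4 per list, 8 of the class, 3 on each side of the fold threshold, and 5 most like Cyp24a1. The members and the gene lists were chosen with earlier results of these data known. Some genes are not reported here: they stayed in the fit and in counts over all genes and were left out of the lists and figures. Lists were described by counts and medians and given no test. Of the genes, 21169 matched the RefSeq table by symbol. Names of 13 genes had become dates, and these were tested but not named. Alternatives covered the arrays fitted, pools, a replicate block, filters, normalization, moderation and the fold threshold.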

Additional observations from a re-analysis of the deposited data

Results flagged for a closer look

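Each of the following named genes was singled out because its log2 response to extract 1 differed between kidney and liver in the test of the difference itself (limma, Benjamini-Hochberg adjustment over all genes, 3 arrays a group). All had first been named by their kidney change, which is part of that difference. The kidney response minus the liver response was 1.301 for Cyp24a1 (adjusted p = 8.72e-07), 1.04 for Pdk4 (adjusted p = 0.039) and 0.73 for Gclc (adjusted p = 0.000119). It was -0.76 for Azgp1 (adjusted p = 0.0148), -0.73 for Srd5a2 (adjusted p = 0.0146) and -0.59 for Pzp (adjusted p = 0.0354), whose kidney change of -0.49 is under the fold threshold.

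In the dim multicopy class it was -1.49 for Gm28683, -1.29 for Gm30858, -1.23 for Gm20877, -1.23 for Gm20815, -1.22 for Gm26230, -1.22 for Gm21943, -1.13 for Snord115 and -0.77 for LOC102637691. The adjusted p was highest for LOC102637691, at 0.033. All 8 had been named by the size of their kidney change, in which the HCD kidney arrays hold the highest levels.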

How the results depend on the processing

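The 6 DE genes outside the dim class became 13 with pools A and B only, 27 with no fold threshold and 3 at a threshold of 1, and 5 to 12 with 1 array left out, the 12 without HCD+Gl-1 array C. All 6 were among the 13 and among the 12, and 3 of them remained without HCD array B. Cyp24a1 and Pdk4 stayed DE in all 14 alternatives run on them. The 23 DE genes of the dim class became 6 when genes with a mean under 5 were left out and 12 at a threshold of 1, and 22 to 26 with 1 array left out.

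Against Control the count of 2 became 1 in a fit on the kidney arrays, 1 with only the groups compared, 5 with pools A and B only, 5 with no fold threshold and 0 at a threshold of 1, and it ran from 0 to 4 with 1 array left out. The limma count was 0 without HCD+Gl-1 array A or B and without Control array A or B. The 23 genes whose response differed between organs became 43 with pools A and B only, 59 with no fold threshold and 9 at a threshold of 1, and ran from 15 to 63 with 1 array left out, 15 without kidney HCD array A and 63 without liver HCD+Gl-1 array B. Against HCD+Gl-2 the 40 became 86 with no fold threshold and ran from 36 to 47 with 1 array left out. None of the genes recomputed changed sign against HCD. Of 308 recomputed list medians 26 moved by more than the spread, and 27, in 10 lists with medians within 0.05 of 0, changed sign. Without HCD+Gl-1 array C the medians for fatty acid oxidation and PPAR alpha response were 0.12 and 0.08.

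Pool letters are shared by groups of different mice. Deviations of same-letter arrays of HCD+Gl-1 and HCD correlated at -0.16, -0.06 and 0.01, so the letters do not pair the samples. With the pool letter as a replicate block 6 genes outside the class were DE, 5 of them the same genes (Prlr lost the call), and 24 in the class.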
